A study of Homo sapiens with 8 samples.

Results

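The 10 genes described here, SLC6A3, STARD8, CRISP3, RANBP3L, PPP1R14C, MLIP, AZGP1, VAT1L, RUNDC3B and IL16, were picked from 60595 listed genes for the size of their response in SUM159 cells, a human triple-negative breast cancer line of mesenchymal character. They stand among the largest rises with olaparib, a drug that blocks PARP1 and PARP2 and with them repair of DNA breaks, or among the largest falls with an shRNA against FOXO1. The 3 groups with values were shFoxO1 cells in 10 uM olaparib, shCon cells (control shRNA) in 10 uM olaparib, and shCon cells in DMSO, each held for 3 days, with lentivirus named as the vehicle of the shRNA in the labels. Neither the number of shRNA sequences against FOXO1 nor whether the cells were a clone is given there, and the DMSO-treated shFoxO1 group was not analysed here, so no value below shows what the shRNA did without the drug. The labels list 2 libraries per group, but the deposited tables give 1 value per gene and group, in FPKM (fragments per kilobase of transcript, scaled to library size). No spread between libraries can therefore be shown beside any value, and their depth is unknown.

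The genes were chosen on these very values, so their levels and ratios are a description and support nothing. Of the 10, STARD8, CRISP3, RANBP3L, SLC6A3, PPP1R14C and MLIP held places 5 to 10 among the called rises with olaparib, ranked by log2 ratio. Ranks covered RefSeq protein-coding genes with a usual symbol whose 2 groups averaged 1 FPKM or more. Called genes listed at 0 in a group have no log2 ratio and were left out of the ranks, however large their change. AZGP1, VAT1L, RUNDC3B and IL16 held places 2, 6, 8 and 10 among the falls with shFoxO1. MLIP, the last of the rises inside the first 10, had a log2 ratio of 4.93, and MAN1A1, the first outside, had 4.78. On the other side IL16 stood at -6.01 and STAC2, the first outside, at -5.91. The places not taken by the 10 genes belonged to MAT1A, CELF6, STOX1 and SESN3 among the rises, and to PAPPA2, FIBIN, CELF6, CYP4B1, CIDEC and DNAJC22 among the falls. Called means a q-value of at most 0.05 in the authors' deposited table.

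FOXO1 is a forkhead transcription factor that insulin and AKT signalling keep out of the nucleus, and that in low AKT activity switches on genes of metabolism, stress resistance and cell cycle arrest. Its DNA-binding domain recognises short sequences built around the forkhead core, and a related core was first described in insulin-responsive genes. FOXO1 itself was at 17.5 FPKM in shFoxO1 cells under olaparib, against 89.2 FPKM in shCon cells under olaparib (q = 0.000244 in the authors' deposited table), the direction its shRNA label names. It was at 87.7 FPKM in shCon cells under olaparib, against 54.6 FPKM in DMSO, which did not pass (q = 0.0966 in the authors' deposited table).

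The promoters are shown first because the 10 genes were picked for moving with FOXO1 level or drug, and these windows are where a forkhead core could be read. Windows of 250 bases before to 50 bases after a start came from RefSeq (GRCh38.p14), which gave 11 windows for 9 of the 10 genes. SLC6A3 had none, and no window covered the RefSeq gene start of IL16 (81182712), so its 2 windows leave out at least that start. The forkhead core TGTTTAC, searched on both strands, was found in 1 of the 11 windows and in 3.42% of 35116 promoter windows of all genes. The match was in the second IL16 window, 56 bases before its start. The insulin response element core CAAAACA, on both strands, was in 1 of the 11, that of CRISP3, 50 bases before the start, and in 4.92% of all windows. The STAT core TTCCNGGAA, which reads the same on both strands, was in 0 of the 11 and in 1.15% of all windows. None of these motifs overlapped another in the windows shown, and a match or its absence in 300 bases says nothing about binding. The values per gene do not tell which of the starts of IL16 was in use. Capitals mark the motif in the CRISP3 window (chr6:49744339-49744638, minus strand) and in the second IL16 window (chr15:81296720-81297019, plus strand). AZGP1 (chr7:99975982-99976281, minus strand), which had the largest called fall of the 10, and PPP1R14C (chr6:150142794-150143093, plus strand), which has the most GC-rich of the 11 windows, hold none of the 3 motifs. All are written 5′ to 3′.
CRISP3: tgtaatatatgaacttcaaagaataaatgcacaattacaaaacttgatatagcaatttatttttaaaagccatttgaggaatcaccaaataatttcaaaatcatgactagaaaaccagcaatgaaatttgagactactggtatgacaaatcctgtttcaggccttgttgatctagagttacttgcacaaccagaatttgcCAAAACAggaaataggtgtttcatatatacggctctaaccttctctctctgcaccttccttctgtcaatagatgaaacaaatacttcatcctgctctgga
IL16, second start: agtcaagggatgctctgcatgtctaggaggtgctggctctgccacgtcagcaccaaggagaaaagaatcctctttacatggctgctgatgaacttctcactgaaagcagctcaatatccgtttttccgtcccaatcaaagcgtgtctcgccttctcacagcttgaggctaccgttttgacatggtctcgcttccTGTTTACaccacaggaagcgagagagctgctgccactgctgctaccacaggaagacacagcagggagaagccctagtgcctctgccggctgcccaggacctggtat
AZGP1: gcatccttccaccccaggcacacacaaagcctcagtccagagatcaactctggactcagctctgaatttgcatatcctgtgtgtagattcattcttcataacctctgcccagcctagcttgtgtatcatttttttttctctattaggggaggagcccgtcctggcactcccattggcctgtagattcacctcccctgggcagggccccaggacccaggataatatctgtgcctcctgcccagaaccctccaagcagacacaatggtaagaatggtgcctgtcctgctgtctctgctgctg
PPP1R14C: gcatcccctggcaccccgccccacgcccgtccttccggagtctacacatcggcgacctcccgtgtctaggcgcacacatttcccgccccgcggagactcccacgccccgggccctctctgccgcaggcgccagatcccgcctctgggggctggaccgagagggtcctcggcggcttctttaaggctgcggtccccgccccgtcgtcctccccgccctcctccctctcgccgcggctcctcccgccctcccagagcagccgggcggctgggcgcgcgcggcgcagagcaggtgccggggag

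The windows had no base composition in common. The GC content was 34% in CRISP3, 41.3% in MLIP, 42.3% in RANBP3L and 52.7% in AZGP1, and 71.3% in RUNDC3B and 75.3% in PPP1R14C, beside a median of 58.7% over all windows. The dinucleotide CG, dense in the promoters of widely expressed genes, occurred 1 time each in the CRISP3, RANBP3L and AZGP1 windows, 3 times in MLIP, 32 times in RUNDC3B and 36 times in PPP1R14C, beside a median of 14. STARD8 and VAT1L lay near the middle, with 16 and 18 CG at the 2 starts of STARD8 and 19 at VAT1L.

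The 10 genes differ in what they do. SLC6A3, AZGP1, CRISP3 and IL16 encode a membrane transporter and secreted proteins, STARD8, PPP1R14C and RUNDC3B work on GTPase or phosphatase signalling, RANBP3L and MLIP act at the nucleus, and VAT1L resembles oxidoreductases. All 10 were tested in both deposited tables. With olaparib 10 of 10 were called higher, where 15.6% of the 14841 tested genes were. With shFoxO1, 8 of 10 were called lower, where 19.8% of 14660 tested genes were, and STARD8 and MLIP were not called. Both counts follow from how the genes were picked. The tables share the shCon olaparib group, so a high value there raises the first ratio and lowers the second, and the directions are not independent of each other.

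**Figure D1:**
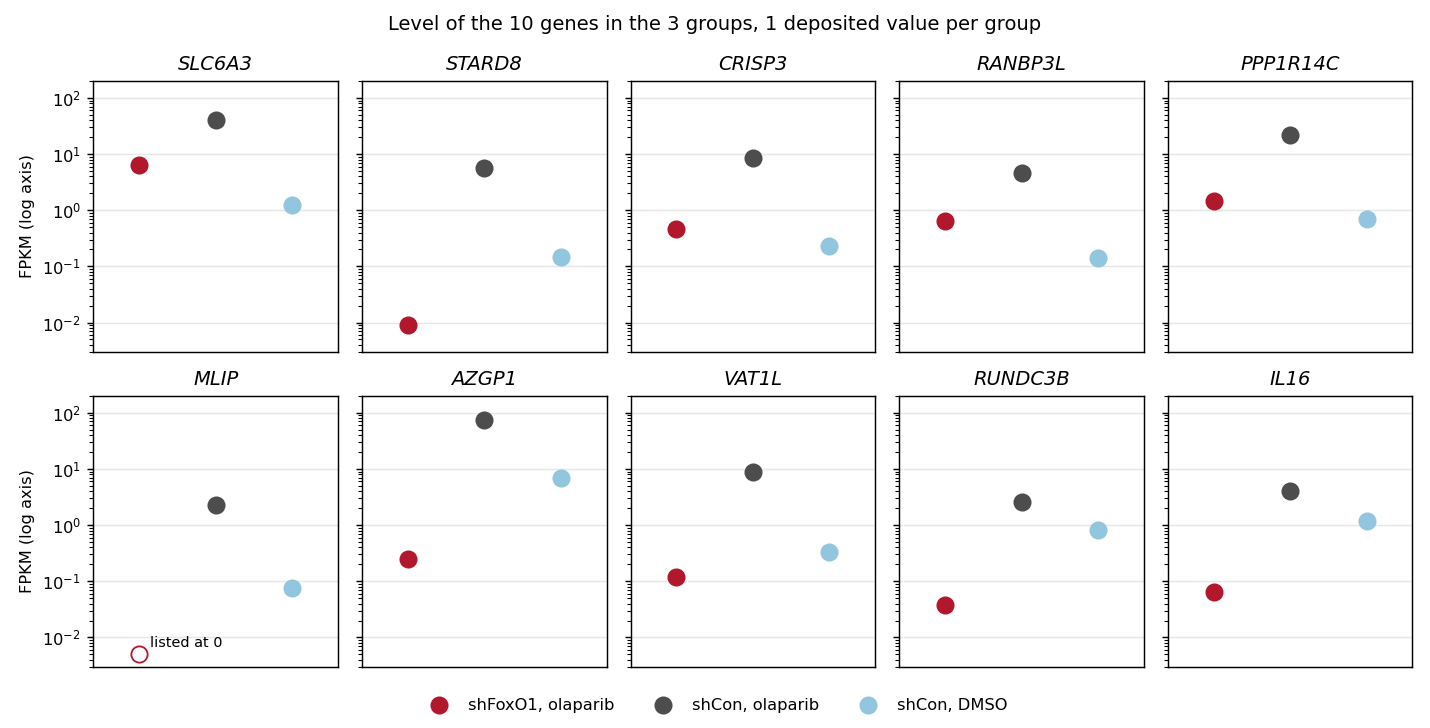
FPKM on a log axis of each of the 10 genes in shFoxO1 cells under olaparib, shCon cells under olaparib and shCon cells in DMSO. Each point is the 1 deposited value of the group, with the shFoxO1 value put on the scale of the first table. All 10 genes are highest in shCon cells under olaparib, and MLIP is listed at 0 in shFoxO1 cells.

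Levels below are FPKM, with shFoxO1 values divided by 1.017, the median ratio of the shared group between the tables over 13688 genes. FPKM is per length, so levels of different genes can be set side by side. Under olaparib in shCon cells the order of levels was AZGP1, SLC6A3, PPP1R14C, VAT1L, CRISP3, STARD8, RANBP3L, IL16, RUNDC3B and MLIP, spanning 73.0 to 2.29 FPKM. Which neighbours in that order differ beyond library spread cannot be told from 1 value each. In DMSO 7 of the 10 were below 1 FPKM and in shFoxO1 cells 8 of the 10, while under olaparib in shCon cells none was (0 of 10). These counts follow in part from how the genes were picked, since a large rise or fall favours a high value in shCon cells under olaparib. In DMSO RUNDC3B (0.809 FPKM) stood above 8.66% of tested genes and IL16 (1.16 FPKM) above 13.7%. In shFoxO1 cells RANBP3L (0.654 FPKM) stood above 6.47% and PPP1R14C (1.48 FPKM) above 16.3%. The median of the 10 was 0.185 FPKM in shFoxO1 cells under olaparib, 7.04 FPKM in shCon cells under olaparib and 0.514 FPKM in DMSO.

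SLC6A3 (ENSG00000142319, chromosome 5, 1392794 to 1445440 in GRCh38.p14, as are all gene positions here) is the dopamine transporter, which returns dopamine to the nerve ending. It stood at 6.42 FPKM in shFoxO1 cells under olaparib, 40.0 FPKM in shCon cells under olaparib and 1.23 FPKM in shCon cells in DMSO. It rose 32.6-fold with olaparib and fell 6.23-fold with shFoxO1, the smallest fall of the 10. The rest of dopamine handling was not there to match it. TH, the first enzyme of dopamine synthesis, was listed at 0.277 FPKM in shFoxO1 cells and at 0 in both shCon groups, and SLC18A2, the vesicle transporter, was at 0, 0.0153 and 0 FPKM in shFoxO1 cells under olaparib, shCon cells under olaparib and shCon cells in DMSO. The closest relatives SLC6A2, listed at 0 in all 3 groups, and SLC6A4, at 0.0591 FPKM with olaparib against 0.00653 FPKM in DMSO, were not tested. MAOA, the mitochondrial enzyme that breaks down monoamines, was at 107 FPKM with shFoxO1 against 311 FPKM with shCon under olaparib (q = 0.000244), and at 306 FPKM with olaparib against 95.0 FPKM in DMSO (q = 0.000284 in the authors' deposited table). Of 23 listed genes of monoamine handling and SLC6 transport, 5 were tested. With olaparib 1 was called higher and 4 lower (15.6% and 23.1% of all tested genes), median log2 ratio -0.77 beside -0.07 over all tested genes. For the shRNA 0 were called higher and 2 lower (22.6% and 19.8% of all tested genes). SLC6A9, a glycine transporter, fell in both, to 13.0 FPKM with olaparib against 30.2 FPKM in DMSO, and to 3.57 FPKM with shFoxO1 against 13.3 FPKM with shCon.

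AZGP1 (ENSG00000160862, chromosome 7, 99966730 to 99976031) encodes zinc-alpha-2-glycoprotein, a secreted protein with a fold like that of MHC class I that promotes lipid breakdown in fat cells. It was at 0.250 FPKM in shFoxO1 cells under olaparib, 73.0 FPKM in shCon cells under olaparib and 7.00 FPKM in DMSO. It was the most abundant of the 10 in both shCon groups, above 91.7% of tested genes under olaparib, and fell 292-fold with shFoxO1 after a 10.4-fold rise with olaparib. PIP, its partner protein in secretions, was listed at 0 in all 3 groups. Of 17 listed secretory and apocrine breast markers, 16 were found. With olaparib 9 were tested, 1 called higher and 4 lower (15.6% and 23.1% of all tested genes, list median -0.53). For the shRNA 8 were tested, 1 called higher and 2 lower (22.6% and 19.8% of all tested genes). The list median was then -0.13, beside 0.01 over all tested genes. KRT8, a keratin of simple epithelia, fell to 93.7 FPKM with shFoxO1 against 331 FPKM with shCon, and KRT7 fell to 686 FPKM with olaparib against 1616 FPKM in DMSO.

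CRISP3 (ENSG00000096006, chromosome 6, 49727376 to 49744388) is a cysteine-rich secreted protein of saliva, seminal fluid and neutrophil granules. It was at 0.469 FPKM in shFoxO1 cells under olaparib, 8.51 FPKM in shCon cells under olaparib and 0.235 FPKM in DMSO. The rise with olaparib was 36.2-fold and the fall with shFoxO1 18.2-fold. Its relatives CRISP1 and CRISP2 were low. CRISP2, the neighbouring gene, was at 0.383 FPKM with olaparib against 0.0460 FPKM in DMSO and was not tested, and CRISP1 was listed at 0 in all 3 groups. Of 11 listed genes of the wider family 4 were tested. The drug had 0 called higher and 2 lower (15.6% and 23.1% of all tested genes, list median -0.30). The shRNA had 0 called higher and 1 lower (22.6% and 19.8% of all tested genes, list median 0.01). GLIPR1 fell to 10.8 FPKM with olaparib against 22.2 FPKM in DMSO.

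IL16 (ENSG00000172349, chromosome 15, 81182712 to 81314058) encodes the precursor of a cytokine that attracts CD4-bearing cells, released when caspase 3 cuts it. It was at 0.0639 FPKM in shFoxO1 cells under olaparib, 4.11 FPKM in shCon cells under olaparib and 1.16 FPKM in DMSO. It rose 3.53-fold with olaparib and fell 64.4-fold with shFoxO1. Its receptor CD4 was at 0.0251 FPKM with olaparib against 0.0190 FPKM in DMSO and not tested. CD9, a tetraspanin described as another receptor, was at 21.2 FPKM with shFoxO1 against 11.5 FPKM with shCon, and at 11.3 FPKM with olaparib against 22.3 FPKM in DMSO, called in both and opposite to IL16. Other interleukins of the list also ran opposite to it. IL1A rose to 8.07 FPKM with shFoxO1 against 0.514 FPKM with shCon, and fell to 0.505 FPKM with olaparib against 5.10 FPKM in DMSO. IL1B was at 3.01 FPKM with shFoxO1 against 0.196 FPKM with shCon, and IL18 at 47.9 FPKM against 29.4 FPKM, both called. Of the list 8 genes were tested, of which 1 was called higher and 4 lower with olaparib (15.6% and 23.1% of all tested genes, list median -0.65). Counts with shFoxO1 were 5 higher and 0 lower (22.6% and 19.8% of all tested genes, list median 0.72).

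STARD8 (ENSG00000130052, chromosome X, 68647666 to 68725836), also known as DLC3, turns off small GTPases through its GAP domain and carries a lipid-binding START domain. It was at 0.00921 FPKM in shFoxO1 cells under olaparib, 5.58 FPKM in shCon cells under olaparib and 0.147 FPKM in DMSO. The 38.1-fold rise with olaparib was the largest of the 10. The 605-fold lower value with shFoxO1 than with shCon did not pass (q = 0.357 in the authors' deposited table). Its paralogs were not like it. STARD13 had a log2 ratio of -0.10 for the drug over DMSO (q = 0.763 in the authors' deposited table), while DLC1 fell to 12.8 FPKM with olaparib against 22.6 FPKM in DMSO. Of 17 tested genes of this GTPase switch, 5 were called higher and 6 lower with olaparib (15.6% and 23.1% of all tested genes, list median -0.10). Calls with shFoxO1 were 2 higher and 7 lower (22.6% and 19.8% of all tested genes, list median -0.29). ARHGAP29, another GTPase inactivator, was at 1.19 FPKM with shFoxO1 against 10.4 FPKM with shCon, and at 10.2 FPKM with olaparib against 1.35 FPKM in DMSO. ARHGAP5 rose to 34.7 FPKM with olaparib against 12.3 FPKM in DMSO and fell to 15.9 FPKM with shFoxO1 against 35.3 FPKM with shCon. RHOB, a small GTPase of endosomes, went the other way, to 214 FPKM with shFoxO1 against 86.7 FPKM with shCon and to 85.3 FPKM with olaparib against 174 FPKM in DMSO.

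PPP1R14C (ENSG00000198729, chromosome 6, 150143044 to 150250392) encodes KEPI, an inhibitor of protein phosphatase 1 that acts once protein kinase C has phosphorylated it. It was at 1.48 FPKM in shFoxO1 cells under olaparib, 21.7 FPKM in shCon cells under olaparib and 0.691 FPKM in DMSO. The rise with olaparib was 31.4-fold and the fall with shFoxO1 14.6-fold. Its paralogs PPP1R14A and PPP1R14D were listed at 0 in all 3 groups, and PPP1R14B fell to 134 FPKM with olaparib against 332 FPKM in DMSO. PPP1CA, a catalytic subunit of the phosphatase, fell to 75.2 FPKM with olaparib against 176 FPKM in DMSO, and PPP1R3C, a glycogen-targeting subunit, fell to 3.89 FPKM with shFoxO1 against 27.9 FPKM with shCon. Of 11 tested genes of this list 0 were called higher and 4 lower with olaparib (15.6% and 23.1% of all tested genes, list median -0.07). There were 3 higher and 2 lower with shFoxO1 (22.6% and 19.8% of all tested genes, list median -0.12).

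RUNDC3B (ENSG00000105784, chromosome 7, 87628398 to 87832296) is a RUN domain protein, of a class that binds small GTPases of the RAP and RAB families. It was at 0.0370 FPKM in shFoxO1 cells under olaparib, 2.56 FPKM in shCon cells under olaparib and 0.809 FPKM in DMSO. Its 3.16-fold rise with olaparib was the smallest of the 10, and it fell 69.1-fold with shFoxO1. The paralog RUNDC3A was at 0.130 FPKM with olaparib against 0.151 FPKM in DMSO and not tested. RAP2A, a small GTPase, was at 3.94 FPKM with shFoxO1 against 11.1 FPKM with shCon, and at 10.9 FPKM with olaparib against 3.93 FPKM in DMSO. RUNDC1 and RAP1B had the opposite directions, with RAP1B at 83.0 FPKM with shFoxO1 against 28.8 FPKM with shCon and at 28.3 FPKM with olaparib against 58.8 FPKM in DMSO. Of its list 15 were tested, with 2 called higher and 5 lower with olaparib (15.6% and 23.1% of all tested genes, list median -0.20). The shRNA counts were 5 higher and 5 lower (22.6% and 19.8% of all tested genes, list median -0.07).

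RANBP3L (ENSG00000164188, chromosome 5, 36246913 to 36301902) is a Ran-binding protein, described in mouse cells as carrying the SMADs of bone morphogenetic protein signalling out of the nucleus. It was at 0.654 FPKM in shFoxO1 cells under olaparib, 4.64 FPKM in shCon cells under olaparib and 0.140 FPKM in DMSO. It rose 33.1-fold with olaparib and fell 7.10-fold with shFoxO1. RANBP3, its paralog, moved the other way in both, to 29.6 FPKM with olaparib against 48.7 FPKM in DMSO and to 45.0 FPKM with shFoxO1 against 30.1 FPKM with shCon. Among the SMADs it is linked to, SMAD5 rose to 26.1 FPKM with olaparib against 15.7 FPKM in DMSO, and SMAD1 was at 15.7 FPKM against 16.2 FPKM and not called. Under the shRNA SMAD5 fell to 19.6 FPKM against 26.6 FPKM with shCon, and SMAD9 rose to 9.15 FPKM against 6.60 FPKM, both called. ID1, a target gene of that pathway, rose to 466 FPKM with shFoxO1 against 227 FPKM with shCon. Its relatives ID2 and ID3 were not called with shFoxO1 (q = 0.967 and 0.730 in the authors' deposited table). With olaparib ID2 was called higher, at 22.2 FPKM against 12.2 FPKM in DMSO. ID1 and ID3 were not called with olaparib (q = 0.0995 and 0.473 in the authors' deposited table). The inhibitory SMAD7 was at 3.95 FPKM with olaparib against 8.68 FPKM in DMSO, called lower. With shFoxO1 SMAD7 was at 7.76 FPKM against 4.02 FPKM with shCon, called higher. Of its list 18 were tested, with 3 called higher and 4 lower with olaparib (15.6% and 23.1% of all tested genes, list median -0.02). Counts with shFoxO1 were 5 higher and 2 lower (22.6% and 19.8% of all tested genes, list median 0.06).

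MLIP (ENSG00000146147, chromosome 6, 54018970 to 54266280) binds lamin A and C at the nuclear envelope and is best known from heart and skeletal muscle. It was listed at 0 in shFoxO1 cells under olaparib and was at 2.29 FPKM in shCon cells under olaparib and 0.0753 FPKM in DMSO. It rose 30.5-fold with olaparib from the lowest starting level of the 10. The difference with shFoxO1 did not pass (q = 0.168 in the authors' deposited table). LMNA, which encodes its lamin partners, fell to 158 FPKM with olaparib against 321 FPKM in DMSO. SYNE2, a giant linker of the nuclear envelope, was at 25.5 FPKM with shFoxO1 against 115 FPKM with shCon, and at 113 FPKM with olaparib against 38.4 FPKM in DMSO. LMNB1 fell to 24.6 FPKM with shFoxO1 against 64.3 FPKM with shCon. Of 13 tested genes of the lamina 3 were called higher and 5 lower with olaparib (15.6% and 23.1% of all tested genes, list median -0.21). Calls with shFoxO1 were 1 higher and 6 lower (22.6% and 19.8% of all tested genes, list median -0.10).

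VAT1L (ENSG00000171724, chromosome 16, 77788564 to 77980107) is a relative of the vesicle membrane protein VAT1 and of quinone reductases. It was at 0.120 FPKM in shFoxO1 cells under olaparib, 8.76 FPKM in shCon cells under olaparib and 0.337 FPKM in DMSO. It rose 26.0-fold with olaparib, place 12 of the rises, and fell 73.2-fold with shFoxO1. VAT1 itself was at 65.6 FPKM with olaparib against 66.6 FPKM in DMSO (q = 0.927 in the authors' deposited table) and fell to 46.3 FPKM with shFoxO1 against 66.7 FPKM with shCon. Of 11 tested genes of the family 2 were called higher and 3 lower with olaparib (15.6% and 23.1% of all tested genes, list median 0.02). There were 0 higher and 3 lower with shFoxO1 (22.6% and 19.8% of all tested genes, list median -0.32). PTGR1, a reductase of prostaglandins and leukotrienes, fell to 1.82 FPKM with shFoxO1 against 6.15 FPKM with shCon.

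**Figure D2:**
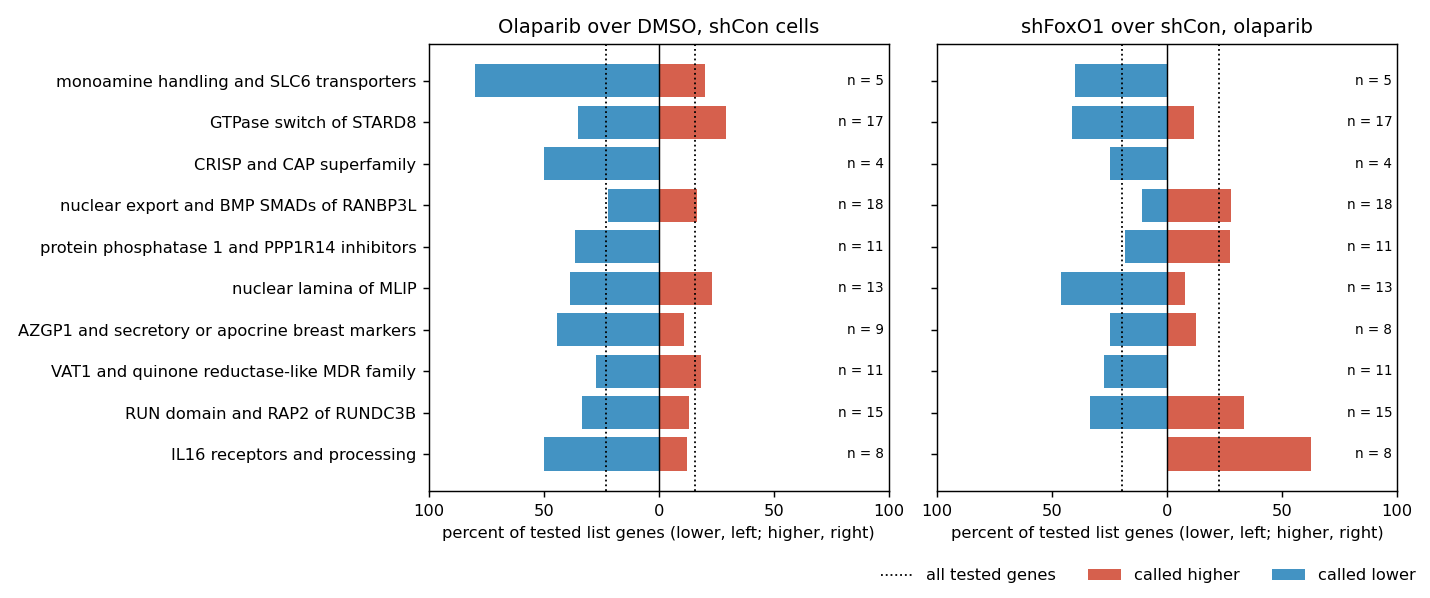
Share of tested genes in each of the 10 lists of related genes that were called higher (right of 0) or lower (left of 0), in percent, with olaparib against DMSO in shCon cells and with shFoxO1 against shCon under olaparib. Dotted lines give the shares over all tested genes and n is the number of tested list genes, which is 4 or 5 in the shortest lists.

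**Figure D3:**
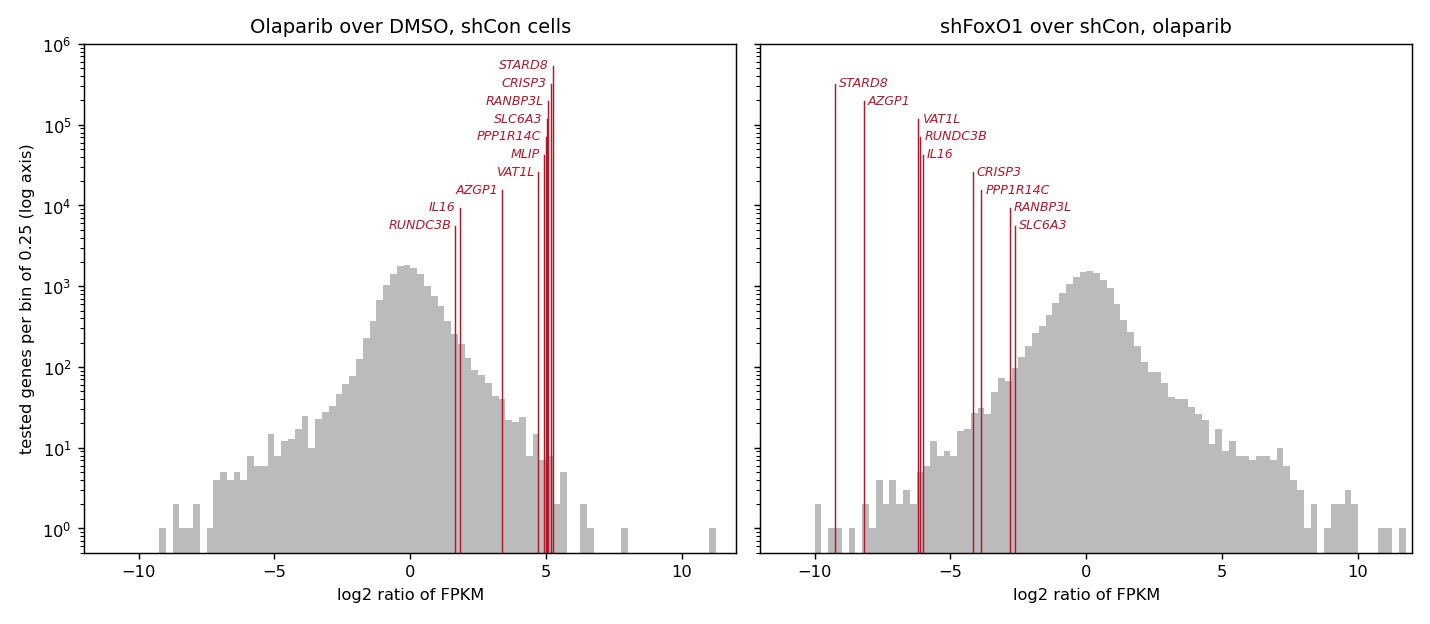
Number of tested genes per bin of 0.25 in log2 ratio (log axis), with a line for each of the 10 genes. In the left panel they lie between 1.66 and 5.25, and in the right panel 9 of them lie between -9.24 and -2.64, since MLIP is listed at 0. Genes at 0 in a group (174 and 232) and ratios beyond the axis (1 and 4) are not drawn.

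The group with both shFoxO1 and olaparib can also be set against shCon cells in DMSO. The authors deposited no test of this difference, so the values are a description. SLC6A3 was 5.23-fold, RANBP3L 4.67-fold, PPP1R14C 2.15-fold and CRISP3 1.99-fold higher in shFoxO1 cells under olaparib than in shCon cells in DMSO. The other 6 genes were lower there than in DMSO. AZGP1 was 28.0-fold, RUNDC3B 21.8-fold, IL16 18.2-fold, STARD8 15.9-fold and VAT1L 2.81-fold lower, and MLIP was listed at 0. Among the 6 genes ranked for their rise with olaparib, 4 thus kept a level above that in DMSO, and the 4 ranked for their fall with shFoxO1 all lay below it, a split that the choice of the genes in part fixes. A pseudocount cannot turn a direction and always makes a ratio smaller in size, so the folds above depend on this choice. For the 9 genes with a ratio, log2 ratios were also taken with a pseudocount of 1 FPKM. They were then 1.74 for SLC6A3, 0.54 for RANBP3L, 0.55 for PPP1R14C and 0.25 for CRISP3 among the higher genes. Among the lower ones they were -2.68 for AZGP1, -1.02 for IL16, -0.80 for RUNDC3B, -0.26 for VAT1L and -0.18 for STARD8.

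**Figure D4:**
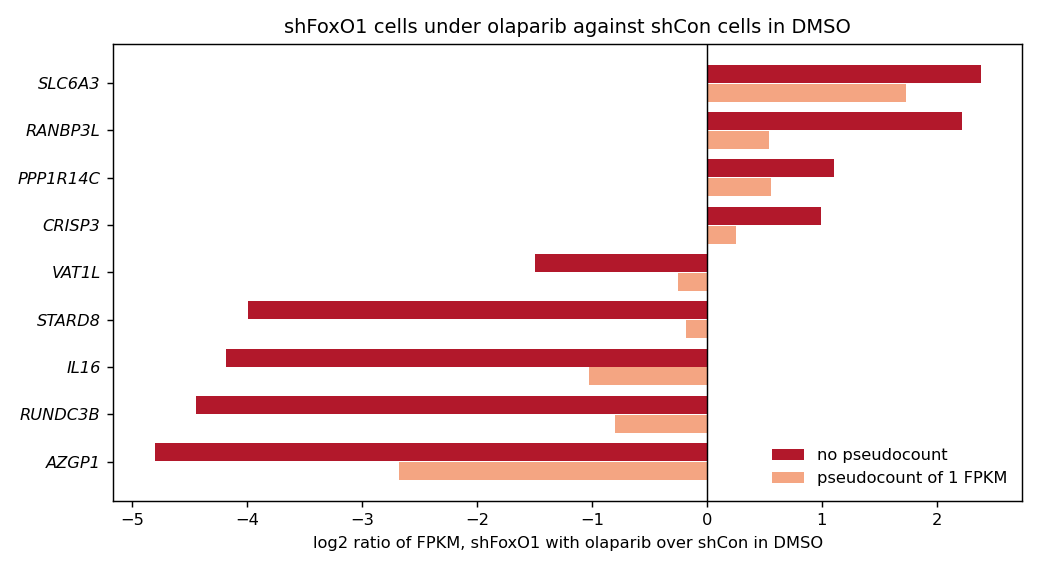
Log2 ratio of FPKM in shFoxO1 cells under olaparib over shCon cells in DMSO for the 9 genes not listed at 0, with no pseudocount and with a pseudocount of 1 FPKM. SLC6A3, RANBP3L, PPP1R14C and CRISP3 lie right of 0 and the other 5 left of it. The pseudocount can change only the length of a bar, not its side.

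The nearest protein-coding gene on each side of each gene was not chosen on its values. Of the 20 neighbours 19 were found in the tables, NUDT7 beside VAT1L was not analysed here, and 12 were tested. With olaparib 6 of the 12 were called higher, where 15.6% of all tested genes were, and 3 lower, where 23.1% were. With shFoxO1 3 of the 12 were called higher, where 22.6% of all tested genes were, and 6 lower, where 19.8% were. LPCAT1, which makes phosphatidylcholine and lies 16.0 kb from SLC6A3, was at 36.5 FPKM with shFoxO1 against 159 FPKM with shCon, and at 156 FPKM with olaparib against 31.8 FPKM in DMSO. CLPTM1L, on its other side at 47.7 kb, was at 237 FPKM with olaparib against 202 FPKM in DMSO (q = 0.359 in the authors' deposited table) and fell to 168 FPKM with shFoxO1 against 242 FPKM with shCon.

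Both neighbours of PPP1R14C were called higher with olaparib. IYD, the enzyme that recovers iodide from iodotyrosines in the thyroid, lies 119 kb away and was at 1.87 FPKM with olaparib and listed at 0 in DMSO. It was at 0.00731 FPKM with shFoxO1 against 1.91 FPKM with shCon, which did not pass (q = 0.313 in the authors' deposited table). ULBP3, a ligand of the NKG2D receptor 73.9 kb away, rose to 16.3 FPKM with olaparib against 3.90 FPKM in DMSO. With shFoxO1 it was at 12.8 FPKM against 16.6 FPKM with shCon, which did not pass (q = 0.0610 in the authors' deposited table).

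NADK2, the mitochondrial NAD kinase beside RANBP3L, ZKSCAN1 beside AZGP1 and SLC25A40 beside RUNDC3B were each called higher with olaparib and lower with shFoxO1. SLC25A40 was at 6.20 FPKM with shFoxO1 against 14.7 FPKM with shCon, and at 14.5 FPKM with olaparib against 6.77 FPKM in DMSO. EFNB1 beside STARD8, SLC1A3 beside RANBP3L and LRRC1 beside MLIP had the opposite directions in both comparisons, LRRC1 at 62.9 FPKM with shFoxO1 against 5.92 FPKM with shCon. STARD5, which overlaps IL16 by 5.01 kb, fell to 1.04 FPKM with shFoxO1 against 2.92 FPKM with shCon and did not pass for the drug (q = 0.246 in the authors' deposited table).

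**Figure D5:**
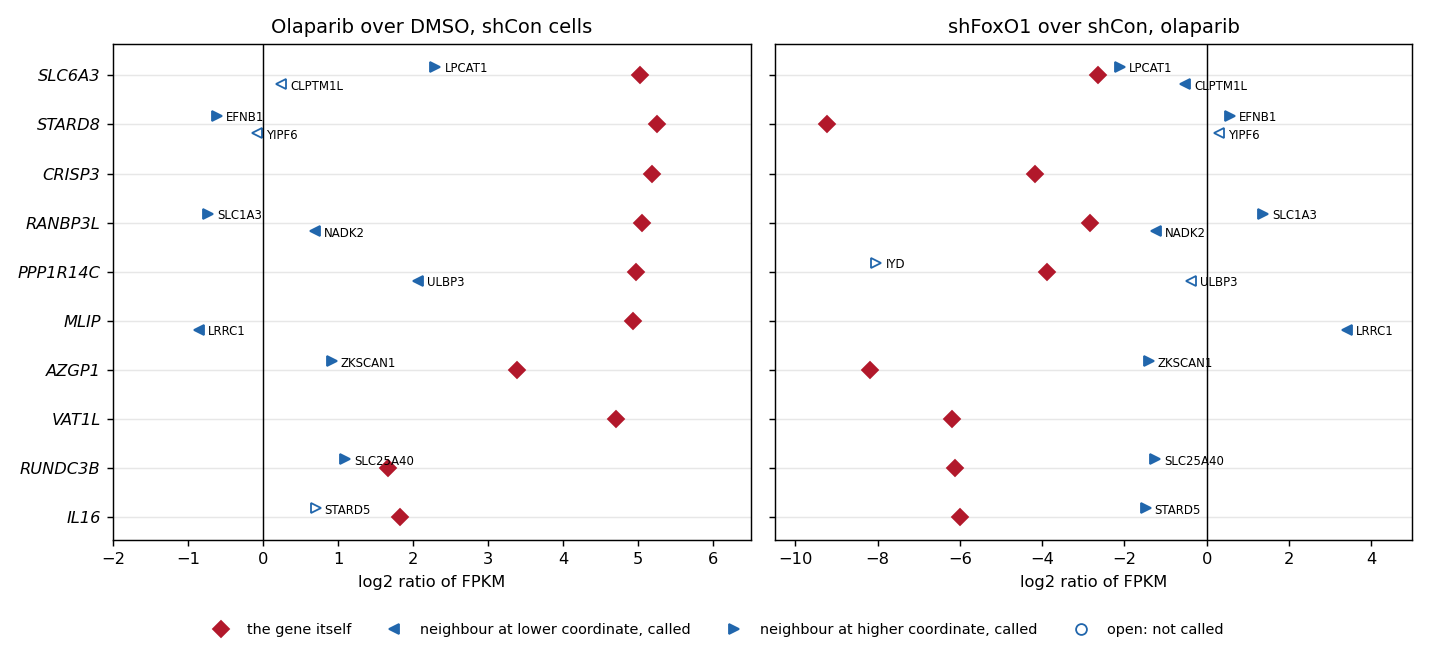
Log2 ratio of FPKM of the 10 genes (diamonds) and of their nearest protein-coding neighbours (triangles, filled where called) in both comparisons. LPCAT1, NADK2, ZKSCAN1 and SLC25A40 lie on the side of their neighbour among the 10 and are called in both comparisons. ULBP3 lies on that side but is called only with olaparib, and CLPTM1L and STARD5 only with shFoxO1. IYD is drawn only with shFoxO1, where it is not called. EFNB1, SLC1A3 and LRRC1 lie on the other side of 0 and are called in both, and YIPF6 is called in neither. Genes not tested or listed at 0 in a group are not drawn.

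Likeness of pattern was measured as the Euclidean distance between the 2 differences in log2(FPKM + 0.1), over 3 groups, among genes tested in both tables. The median pattern of the 10 genes was 4.32 with olaparib and -4.45 with shFoxO1. The 5 nearest genes were IYD (distance 0.22), STOX1 (0.24), the pseudogene SUMO2P6 (0.33), CFI (0.34) and PWWP3B (0.39). With shFoxO1 the differences of IYD, STOX1 and SUMO2P6 did not pass (q = 0.313, 0.347 and 0.136 in the authors' deposited table). IYD, SUMO2P6 and CFI were listed at 0 in DMSO, so their distances depend on the 0.1 FPKM added. IYD is thus both the nearest in pattern to the 10 and the next gene along from PPP1R14C. PWWP3B was the most abundant of these, at 4.03 FPKM with shFoxO1 against 69.6 FPKM with shCon, and at 68.4 FPKM with olaparib against 3.60 FPKM in DMSO. CFI, complement factor I, was listed at 0 in shFoxO1 cells under olaparib, at 1.66 FPKM in shCon cells under olaparib and at 0 in DMSO.

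Of the single genes, MAN1A1, a mannosidase that trims N-glycans, was nearest to CRISP3 (0.08) and to PPP1R14C (0.25), and SELENOP, the plasma selenium carrier, to VAT1L (0.08) and STARD8 (0.35). SELENOP was at 1.82 FPKM with shFoxO1 against 80.7 FPKM with shCon, and at 79.2 FPKM with olaparib against 3.63 FPKM in DMSO. PLAC9 was nearest to RUNDC3B (0.33) and FIBIN to AZGP1 (0.82). The difference of PLAC9 with shFoxO1 did not pass (q = 0.354 in the authors' deposited table). For SLC6A3 and RANBP3L the nearest was RPL36A-HNRNPH2 (0.60 and 0.16) and for MLIP NDUFC2-KCTD14 (0.29). Both listed genes span a pair of other genes, and their values are uncertain because reads may be shared. Neither was called with olaparib (q = 0.203 and 0.118) or with shFoxO1 (q = 0.401 and 0.0563 in the authors' deposited table).

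The deposited statistics put different weight on the 10 genes. In the authors' deposited table SLC6A3, PPP1R14C and AZGP1 had statistics of 10.5, 11.5 and 10.5 for olaparib, while MLIP had 0.737 with the smallest p the table holds (5e-05). For shFoxO1, RUNDC3B had -0.454 with p = 0.0001 in the authors' deposited table and STARD8 -0.445 with p = 0.239, and IL16 had -0.83 with p = 5e-05. A statistic under 1 in size stood beside 146 of the 5744 genes called with olaparib and 188 of the 6218 called with shFoxO1. With p taken from the statistic by the normal law, an alternative chosen after the data were seen, the calls of MLIP, RUNDC3B and IL16 with olaparib were lost (adjusted p = 0.735, 0.489 and 0.202), as were those of RUNDC3B and IL16 with shFoxO1 (adjusted p = 0.839 and 0.659). When untested genes were counted in the adjustment too, RUNDC3B and IL16 were no longer called with olaparib (adjusted p = 0.142 and 0.0795).

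Near 0 the ratios depend on the pseudocount. With a pseudocount of 1 FPKM the 10 log2 ratios lay between 0.98 and 4.20 for olaparib and between -5.91 and -1.74 for shFoxO1, where MLIP then stood at -1.74. Of the 10 genes 7 are listed by the authors with the same region as another gene, as are 72.0% of all tested genes in each comparison. RUNDC3B shares its region with ABCB1, the drug efflux pump it overlaps, which was at most 0.300 FPKM in any group and not tested, and IL16 with STARD5. The labels name a directional library kit, but whether reads were assigned by strand is not given in the sources used here.

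Markers of the line and of other tissues were read in the same tables. These values are as deposited, with no scaling between the tables. The 7 mesenchymal markers summed to 2495 FPKM in shFoxO1 cells under olaparib, 3192 FPKM in shCon cells under olaparib and 3337 FPKM in DMSO. With olaparib 0 of these 7 were called higher and 1 lower (15.6% and 23.1% of all tested genes). The shRNA counts were 2 higher and 3 lower (22.6% and 19.8% of all tested genes). VIM, the mesenchymal filament, fell to 1656 FPKM with shFoxO1 against 2487 FPKM with shCon, as did AXL and CAV1 to 34.5 and 82.2 FPKM against 87.4 and 141.7 FPKM. FN1 rose to 559 FPKM with shFoxO1 against 379 FPKM with shCon, and CDH2 to 30.3 FPKM against 18.6 FPKM. The 7 luminal markers summed to 212, 436 and 468 FPKM in shFoxO1 cells under olaparib, shCon cells under olaparib and shCon cells in DMSO. KRT8 was at 93.7, 326 and 255 FPKM in that order, and KRT18 at 118, 110 and 213 FPKM. CDH1, the epithelial cadherin, was listed at 0 in all 3 groups. In each comparison 2 luminal markers were tested, with 0 called higher and 1 lower (KRT18 with olaparib, KRT8 with shFoxO1). The 6 leukocyte markers summed to 0.339, 0.566 and 2.204 FPKM in shFoxO1 cells under olaparib, shCon cells under olaparib and shCon cells in DMSO. The 7 markers of dopaminergic and other neurons summed to 4.84, 4.21 and 5.43 FPKM in that order, most of it NR4A2 under olaparib, the 7 muscle markers to 4.81, 0.0710 and 0.175 FPKM, most of it ACTN2 in shFoxO1 cells (4.76 FPKM), and the 6 markers of prostate and salivary epithelium to 8.59, 6.89 and 5.13 FPKM. MYH6, DES, MYOD1, MYOG, KLK2, KLK3, STATH and MUC7, defining markers of the tissues where MLIP, CRISP3 and AZGP1 are best known, were listed at 0 in all 3 groups. The part of the markers that differed in the values of the 10 genes was not tested. In bulk RNA, fewer expressing cells and less RNA per cell cannot be told apart.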

How the data were processed

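RNA was measured in SUM159 cells, with 8 libraries in 4 groups per the labels, of which 3 groups have values. Libraries were directional and depleted of ribosomal RNA, per the labels' protocols, which name 2 sequencing providers without assigning libraries to them. CASAVA 1.4, HISAT2 2.1.0, Cufflinks 2.2.1 and hg38 appear in the submitters' processing notes, which give them no role. Per the file headers, the authors deposited for each gene and group 1 value, taken as FPKM, with a q-value, a p-value and a test statistic (a score) for 2 comparisons. Whether both libraries entered a value, or came from separate cultures, is not stated, so the q-values may measure technical spread. Genes with status OK count as tested (14841 and 14660), and a q-value of at most 0.05 as called.

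The members and lists were chosen with earlier results of these data known. The named genes were the 10 members, FOXO1, the genes at the ranks around them, the nearest genes in pattern, the nearest protein-coding neighbours, and up to 4 called genes of at least 2-fold change per list of related genes. Close paralogs, receptors, partners and pathway genes named outside it were picked with their values in view. The gene nearest in pattern to IL16 and 1 gene of the AZGP1 list are not reported here. Ratios were taken on the FPKM as deposited, without a pseudocount. The design allowed for limma on values per library, which 1 value per group cannot give. Positions and promoters are from RefSeq GRCh38.p14. Python 3.11.15, pandas 2.3.3, numpy 2.4.6 and scipy 1.17.1 were used, and the adjustment was tested on simulated data. No column of other samples was left out (0 columns). Alternatives were a q of 0.01, adjustment over every listed gene, a minimum of 1 FPKM, a 2-fold minimum, pseudocounts of 0.1 and 1 FPKM, quantile normalization, median centring and p from the statistic.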

Additional observations from a re-analysis of the deposited data

How the results depend on the processing

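The direction of every log2 ratio of the 10 genes held under quantile normalization and subtraction of the median of all tested genes. That covers the 19 ratios with no group at 0 (MLIP with shFoxO1 has none). Pseudocounts of 0.1 and 1 FPKM change only the size of a ratio, since the same value added to both groups cannot turn its direction. Requiring at least a 2-fold change left 1266 genes called higher and 1445 lower with olaparib, and 1737 higher and 1731 lower with shFoxO1, where 2311, 3433, 3314 and 2904 were called at any size. With p from the deposited statistic by the normal law, chosen after the data were seen, the counts were 888 higher and 1728 lower with olaparib, and 1778 higher and 1344 lower with shFoxO1; 7 of the 10 genes were then called higher with olaparib and 6 lower with shFoxO1. With a q of 0.01 or adjustment over every listed gene, 8 were called higher with olaparib and 8 lower with shFoxO1. The number of genes above their DMSO level in shFoxO1 cells under olaparib was 4 with and without scaling between the tables, and a pseudocount cannot change it. If the deposited statistic is a log ratio over its error, which no source used here states, the error of the log2 ratio would span 0.32 to 6.69 for olaparib and 0.36 to 20.8 for shFoxO1 among the 10 genes. No paired analysis was possible because the tables hold 1 value per group and not the replicates, and for the same reason no replicate could be left out.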
